A study of Homo sapiens with 16 samples.

Results

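The nuclear genes for the subunits of the mitochondrial respiratory chain and of ATP synthase were examined for binding of the hypoxia-inducible factors HIF-1α and HIF-2α. Genes were chosen by symbol alone, from the protein-coding genes of GENCODE release 44 on GRCh37, as those beginning with NDUFA, NDUFB, NDUFC, NDUFS, NDUFV, UQCR, COX4I, COX5 to COX8 or ATP5, together with SDHA, SDHB, SDHC and SDHD. The NDUFAF assembly factors, COX4I2 and NDUFA4L2 were left out. This gave 88 of 19820 protein-coding genes, with 39 in complex I, 4 in complex II, 9 in complex III, 16 in complex IV and 20 in complex V. They included 7 core subunits of complex I, 7 tissue-restricted or retro-derived paralogs such as COX8C and UQCRHL, and 2 readthrough genes, NDUFC2-KCTD14 and ATP5MF-PTCD1. NDUFA4, a protein now usually placed with cytochrome c oxidase, was counted in complex I because of its symbol. The symbol rule also took in ATP5IF1, an inhibitor of ATP synthase, and COX7A2L, a factor of respiratory supercomplexes. Neither is a subunit in the strict sense and neither was bound in any library, but both are counted with the subunit genes below.

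Complex I (NADH dehydrogenase) and complex II (succinate dehydrogenase) pass electrons from fuel molecules to ubiquinone, complex III passes them on to cytochrome c, and complex IV (cytochrome c oxidase) hands them to oxygen. Complexes I, III and IV pump protons across the inner mitochondrial membrane, and complex V (ATP synthase) uses their return to make ATP. HIF is a heterodimer of an oxygen-labile α subunit, HIF-1α or HIF-2α, and the stable HIF-1β. It binds the core letters ACGTG or GCGTG, and glycolytic enzyme genes are its textbook targets.

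Peaks of chromatin immunoprecipitation followed by sequencing (ChIP-seq) were available for 4 established human cancer cell lines, namely A549 from lung, HCT116 from colon, PC3 from prostate and T47D from breast. All cultures were kept in 0.5% oxygen for 16 h, so no normoxic comparison was possible. In each line the rabbit antibodies PM14 (HIF-1α) and PM9 (HIF-2α) were used on 2 replicates each, which made 8 groups and 16 libraries. The peak lists held between 275 and 4505 peaks, and the sequencing depth behind them is unknown. A gene was called bound in a library when the centre of a peak lay within 1000 bp of a transcriptional start site (TSS) of any of its protein-coding transcripts. The paper's own rule for high-confidence sites was stricter. It asked for a peak from every replicate of the HIF-α antibody and also of HIF-1β. Bound is a looser term here, since a peak from an individual library was enough and no HIF-1β peak was required.

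HIF-1α peaks were found at a minority of respiratory chain subunit genes, in HCT116, PC3 and T47D cells but not in A549 cells, and a HIF-2α peak was found at SDHA alone. Of the 88 genes, 21 (23.9%, Wilson 95% interval 16.2 to 33.7) were bound in at least 1 library, against 29.2% of all protein-coding genes. The remaining 67 (76.1%) were bound in no library, against 70.8% of all protein-coding genes. All 21 bound genes had a HIF-1α peak, where the share of all genes was 28.2%, and 1 (1.14%) had a HIF-2α peak, where the share of all genes was 5.22%. Among bound genes the median number of libraries was 1 for the subunits and 2 for all genes.

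Peaks found in both replicates of a group were rarer. HIF-1α bound 7 subunit genes (7.95%) in both replicates of at least 1 cell line, against 12% of all genes. These were COX5A, ATP5PO, NDUFS7, NDUFB8, COX4I1, COX8C and NDUFV2. By cell line the counts were 6 in HCT116 (10.7% of all genes), 3 in PC3 (3.93%), 3 in T47D (1.77%) and 0 in A549 cells (0.752%). HIF-2α bound 0 of 88 in both replicates of any cell line, which allows a share of up to 3.41% (3 counts of 88; the upper Wilson bound is 4.18%), and 1.22% of all genes were bound in this way (A549 0.696%, HCT116 0.737%, PC3 0.161%, T47D 0.202%). Peaks in at least 4 libraries were found at 3 subunit genes, again 3.41%, and at 4.94% of all genes. None of the 88 was bound in at least 8 libraries (0.974% of all genes) or in all 16 (0.0605%). COX5A, ATP5PO and NDUFS7 were bound by HIF-1α in both replicates of at least 2 cell lines, a share of 3.41% beside 3.38% of all genes. The count of 7 fell to 4 when either HCT116 HIF-1α replicate was left out, since that cell line then had no pair.

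The share of subunit genes bound moved with the share of all genes from library to library. In HCT116 cells HIF-1α bound 11 subunit genes (12.5%) in replicate 2 and 10 (11.4%) in replicate 3, beside 17.5% and 16.4% of all genes. In PC3 cells it bound 4 (4.55%) in replicate 1 and 10 (11.4%) in replicate 2, beside 5.13% and 12.4% of all genes. In T47D cells it bound 3 (3.41%) in each replicate, beside 2.96% and 2.69% of all genes. HCT116 had the highest shares and T47D the lowest of these 3 lines, and the PC3 replicates spanned most of the range between them.

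A549 cells had no HIF-1α peak at any subunit gene in replicate 2 or replicate 3, where 1.02% and 1.83% of all genes were bound. HIF-2α bound no subunit gene in A549 replicate 2 (1% of all genes) and SDHA in A549 replicate 3 (1.14% of the subunit genes and of all genes). No subunit gene had a HIF-2α peak in HCT116 (2.26% and 1.53% of all genes in replicates 2 and 3), PC3 (0.202% and 1.74% in replicates 1 and 2) or T47D cells (0.368% and 0.444%). In each of these 9 libraries without a bound subunit gene the count of 0 of 88 allows a share of up to 3.41% by the limit of 3 counts, or 4.18% by the upper Wilson bound, both above the share of all genes, so a difference was not detectable.

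The subunit share was 0 in 9 libraries, equalled that of all genes to 3 digits in A549 HIF-2α replicate 3, and had a lower value in the 4 HIF-1α libraries of HCT116 and PC3 and a higher value in the 2 of T47D. The difference in share was −1.30 percentage points on average (SD 1.67, n = 16 libraries), −1.66 over the 8 HIF-1α libraries and −0.94 over the 8 HIF-2α libraries. The spread of this difference between replicates of a group was 0.546 points (pooled SD). In all 16 libraries the Wilson 95% interval of the subunit share, which covers counting error only, held the share of all genes.

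**Figure D1:**
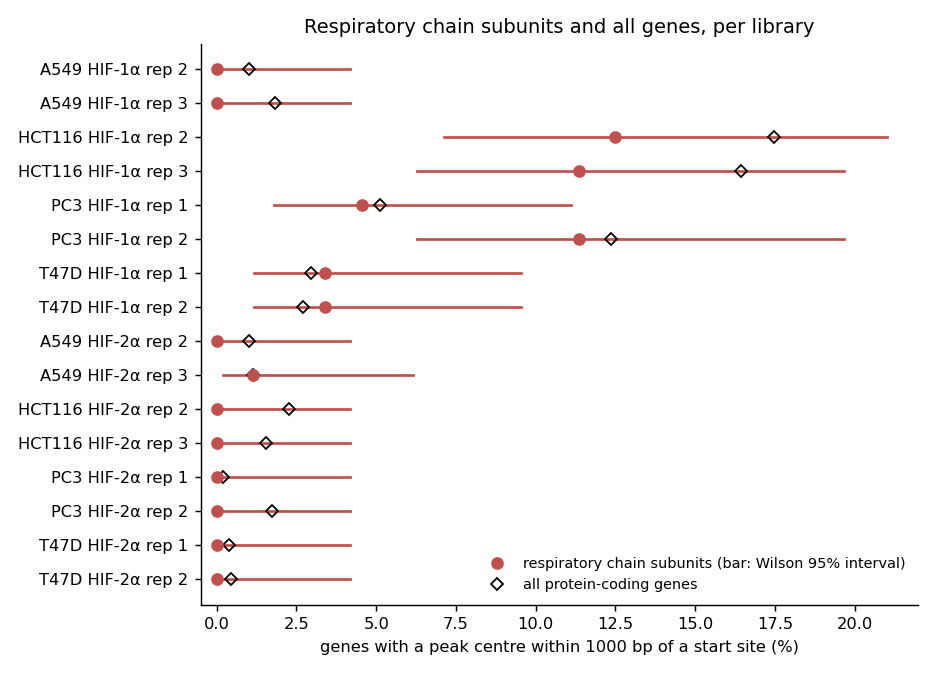
Share of the 88 respiratory chain subunit genes (filled circles, bars are Wilson 95% intervals) and of all 19820 protein-coding genes (open diamonds) with a peak centre within 1000 bp of a start site, in percent, for each of the 16 libraries. Circles are at 0 in 9 libraries, and the bar of every library holds its diamond.

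By complex, 8 of 39 genes of complex I were bound in at least 1 library, 1 of 4 of complex II, 1 of 9 of complex III, 4 of 16 of complex IV and 7 of 20 of complex V. The shares ran from 11.1% in complex III to 35.0% in complex V, on either side of the 29.2% of all genes, with groups too small to order them. In both replicates of at least 1 HIF-1α group the counts were 3 of 39 in complex I, 3 of 16 in complex IV and 1 of 20 in complex V, or 7.69%, 18.8% and 5% beside 12% of all genes. Complexes II and III had none. In HCT116 replicates 2 and 3 HIF-1α bound 10.3% and 7.69% of complex I, 18.8% and 25% of complex IV and 10% and 15% of complex V genes, beside 17.5% and 16.4% of all genes. In PC3 replicates 1 and 2 the shares were 5.13% and 7.69%, 6.25% and 12.5%, and 5% and 25%, beside 5.13% and 12.4%. Each T47D replicate had 1 bound gene in each of these 3 complexes, or 2.56%, 6.25% and 5%, beside 2.96% and 2.69% of all genes. Of the 7 core subunits of complex I, which carry its flavin and iron-sulphur clusters, 3 were bound in at least 1 library (NDUFS7, NDUFV1 and NDUFV2). Of the 7 tissue-restricted or retro-derived paralogs 2 were bound, COX8C and COX6B2. The shares, 42.9% of the core subunits and 28.6% of the paralogs, stand beside 29.2% of all genes and come from lists of 7.

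**Figure D2:**
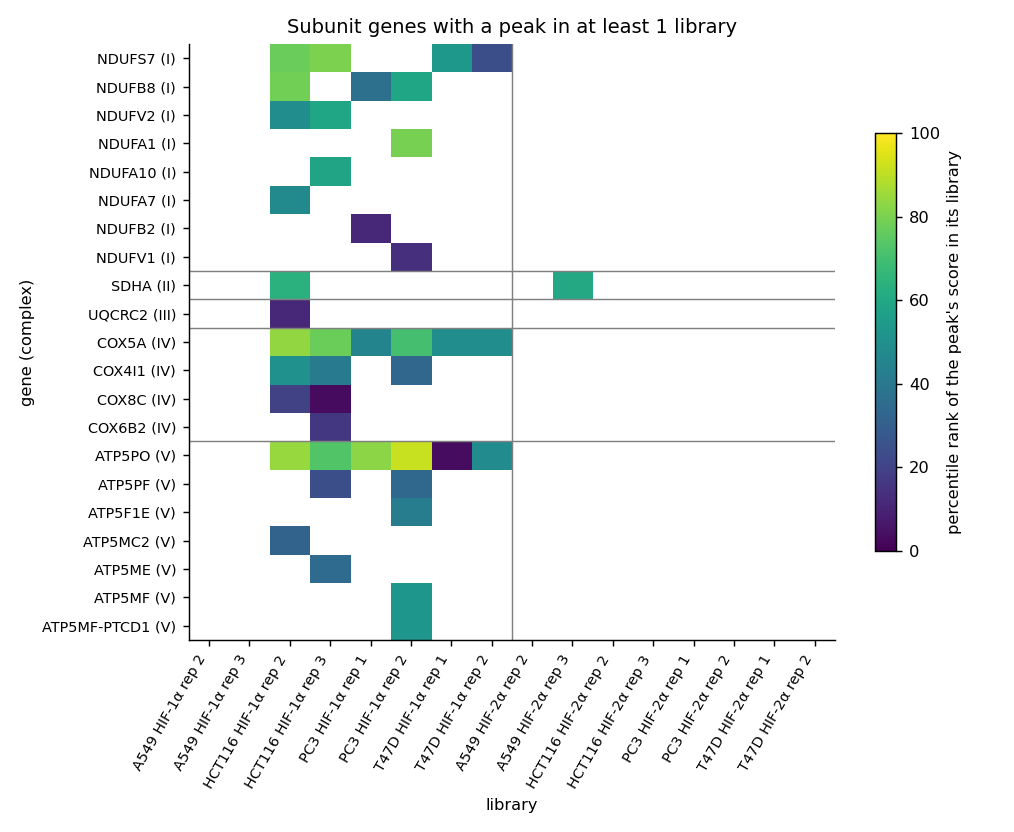
The 21 subunit genes with a peak in at least 1 library (vertical axis, with their complex in brackets) in the 16 libraries (horizontal axis, HIF-1α to the left of the vertical line). Colour gives the percentile rank of the peak's score within its own library and white marks no peak; COX5A and ATP5PO fill 6 HIF-1α columns and SDHA holds the only HIF-2α cell.

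COX5A and ATP5PO had peaks in the most libraries, 6 each, the HIF-1α libraries of HCT116, PC3 and T47D cells without exception. COX5A, on chromosome 15, encodes a nuclear-coded subunit of cytochrome c oxidase. Its peak scores, which are the peak caller's own and were ranked within each list, were 161.06 and 119.49 in HCT116 replicates 2 and 3, 65.64 and 111.41 in PC3 replicates 1 and 2, and 76.75 and 73.98 in T47D replicates 1 and 2. These were at percentiles 45.0 to 83.7 of their lists. Peak centres lay 8 to 97 bp from the nearest TSS, either just upstream or in the coding part of exon 1, and the strongest peak spanned chr15:75229735-75231129. The nearest HIF-2α peak of any library was 47653 bp away.

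ATP5PO, on chromosome 21, encodes the oligomycin sensitivity-conferring protein, which ties the catalytic head of ATP synthase to its peripheral stalk. Scores were 166.64 and 108.08 in HCT116 cells, 128.99 and 256.39 in PC3 cells and 50.99 and 73.51 in T47D cells. The PC3 replicate 2 peak (chr21:35287362-35288814) was at percentile 91.6 of its list and was the highest score at any subunit gene. The T47D replicate 1 peak was at percentile 3.29, close to the lowest score kept in the list. Centres lay 6 to 80 bp from the TSS.

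NDUFS7 encodes the core complex I subunit that holds the last iron-sulphur cluster before ubiquinone. It was bound by HIF-1α in 4 libraries, with scores of 131.01 and 128.11 in HCT116 replicates 2 and 3 and 81.8 and 57.64 in T47D replicates 1 and 2. HCT116 peaks lay at percentiles 77.1 and 80.2 and T47D peaks at 53.2 and 23.9. No peak was called there in either PC3 library, and centres lay 89 to 169 bp from the nearest TSS.

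NDUFB8, an accessory subunit of the membrane arm of complex I, had HIF-1α peaks in HCT116 replicate 2 (score 137.9) and in PC3 replicates 1 and 2 (61.74 and 90.11). A TSS of HIF1AN, the gene for the HIF asparagine hydroxylase, lay within 1000 bp of all 3 peak centres, although NDUFB8 had the nearer TSS. COX4I1 encodes the ubiquitous form of subunit IV of cytochrome c oxidase and had peaks in HCT116 replicates 2 and 3 (78.58 and 67.67) and PC3 replicate 2 (65.94). It shares a divergent promoter with EMC8, whose TSS was 18 to 23 bp from the peak centres and nearer than that of COX4I1 (53 to 121 bp).

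NDUFV2, a core iron-sulphur subunit of the NADH-oxidising part of complex I, had peaks in both HCT116 HIF-1α replicates (76.86 and 84.74). COX8C, a tissue-restricted form of subunit VIII of cytochrome c oxidase, also had peaks in both (56.94 and 50.98), at percentiles 19.6 and 2.84. SDHA encodes the flavoprotein of succinate dehydrogenase. It had 1 HIF-1α peak in HCT116 replicate 2 (score 97.63, percentile 63.7, centre 86 bp from the TSS) and 1 HIF-2α peak in A549 replicate 3 (score 106.43, percentile 60.2, 477 bp into intron 1). Neither peak was called in the other replicate of its group, and a TSS of CCDC127 lay within 1000 bp of both.

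The stretch upstream of the TSS is given for the 5 genes with peaks in at least 3 libraries and for SDHA, because these are the sequences that peaks of 2 to 6 libraries overlapped. SDHA was level with NDUFV2, ATP5PF and COX8C at 2 libraries and was taken for its higher mean percentile of score. Each was read from GRCh37 on the strand of the gene, 5′ to 3′, ending at the base before the TSS of the representative transcript. It runs for 200 bases, or less where a coding neighbour's exon begins. Capitals mark ACGTG or GCGTG on either strand, which in the opposite orientation reads CACGT or CACGC. The regions are chr15:75230415-75230614 (minus strand) for COX5A, chr21:35288109-35288308 (minus) for ATP5PO, chr19:1383706-1383905 (plus) for NDUFS7, chr10:102289629-102289828 (minus) for NDUFB8, chr16:85833151-85833300 (plus) for COX4I1 and chr5:218269-218434 (plus) for SDHA.
COX5A: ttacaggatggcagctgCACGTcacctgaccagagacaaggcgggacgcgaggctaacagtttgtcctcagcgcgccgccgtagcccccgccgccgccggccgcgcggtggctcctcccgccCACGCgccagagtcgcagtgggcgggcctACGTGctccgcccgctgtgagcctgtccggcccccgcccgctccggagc
ATP5PO: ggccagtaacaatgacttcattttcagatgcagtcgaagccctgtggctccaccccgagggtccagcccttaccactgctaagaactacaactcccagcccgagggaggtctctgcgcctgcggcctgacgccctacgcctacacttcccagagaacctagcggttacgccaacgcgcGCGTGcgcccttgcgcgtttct
NDUFS7: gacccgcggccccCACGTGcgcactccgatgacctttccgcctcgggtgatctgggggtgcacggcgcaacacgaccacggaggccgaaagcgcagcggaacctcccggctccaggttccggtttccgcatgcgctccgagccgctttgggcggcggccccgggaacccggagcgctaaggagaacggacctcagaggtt
NDUFB8: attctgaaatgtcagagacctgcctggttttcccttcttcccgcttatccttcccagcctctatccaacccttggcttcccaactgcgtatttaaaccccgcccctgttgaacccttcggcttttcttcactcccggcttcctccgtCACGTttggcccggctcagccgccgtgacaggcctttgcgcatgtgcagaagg
COX4I1: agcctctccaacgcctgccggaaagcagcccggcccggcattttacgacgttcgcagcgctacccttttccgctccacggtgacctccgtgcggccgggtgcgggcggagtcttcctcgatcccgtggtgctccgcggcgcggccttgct
SDHA: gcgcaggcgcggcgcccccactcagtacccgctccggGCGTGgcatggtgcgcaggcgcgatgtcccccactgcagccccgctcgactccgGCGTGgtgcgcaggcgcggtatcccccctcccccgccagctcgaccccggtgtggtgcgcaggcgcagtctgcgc

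COX5A held 2 matches to ACGTG and 1 to GCGTG in this stretch, ATP5PO held 1 to GCGTG, NDUFB8 held 1 to ACGTG and SDHA held 2 to GCGTG. In NDUFS7 the palindrome CACGTG holds ACGTG on both strands, so its 2 matches overlap. COX4I1 had no match in its 150 bases. In 200-base stretches of this kind ACGTG was present at 17.3% of all genes and 19.3% of the 88 subunit genes, and GCGTG at 35.3% and 44.3%. Among bound genes ACGTG was present at 8 of 21 subunit genes (38.1%) and 23.9% of all bound genes, and GCGTG at 14 of 21 (66.7%) and 47%. A match is a description of the letters and was not tested as a binding site.

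Another 13 subunit genes made up the rest of the bound set. ATP5PF, a peripheral stalk subunit that shares its promoter region with GABPA, had HIF-1α peaks in HCT116 replicate 3 (58.84) and PC3 replicate 2 (66.42), 1 replicate of each pair. The other 12 had a HIF-1α peak in 1 library each. They were NDUFA1, NDUFA7, NDUFA10, NDUFB2 and NDUFV1 of complex I, UQCRC2 (a core protein of complex III), COX6B2 of complex IV, and ATP5F1E, ATP5MC2 (a gene for subunit c of the rotor ring), ATP5ME, ATP5MF and ATP5MF-PTCD1 of complex V. Scores ran from 52.92 at NDUFB2 to 142.92 at NDUFA1. The NDUFA1, NDUFA7 and ATP5ME peaks were nearer to the TSS of RNF113A, RPS28 and MYL5, and ATP5MF and ATP5MF-PTCD1 share 1 peak at a common start.

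Peaks at subunit genes were of middling rank. The 42 pairs of a subunit gene and a peak had a median percentile of 49.1 within their lists, against 53.7 for the 13858 pairs of all genes. A score at or above the 90th percentile was found in 1 pair (2.38%), ATP5PO in PC3 replicate 2, against 9.98% of the pairs of all genes. The highest score was 256.39 at a subunit gene and 3223.06 at any gene. Centres were close to the TSS, at a median of 79 bp against 141 bp. A second protein-coding gene had a TSS within 1000 bp in 15 pairs (35.7%) against 22.7%, and the subunit gene was the nearest gene in 35 pairs (83.3%) against 88.4%.

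Divergent neighbours were frequent throughout the list. A protein-coding TSS on the opposite strand lay within 1000 bp upstream of 27 of the 88 genes (30.7%), as at UQCRH with LRRC41 or SDHD with TIMM8B, against 11.7% of all genes. The share was 28.6% of the bound and 31.3% of the unbound subunit genes. Genes had a median of 3 start sites in both the list and the annotation.

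The isoforms were compared gene by gene with a two-sided exact permutation test over libraries, in which the HIF-1α and HIF-2α labels were exchanged among the 4 libraries of a cell line. The test was run on the 979 protein-coding genes bound in at least 4 libraries, with Benjamini-Hochberg adjustment over all of them. Of the subunit genes only COX5A, ATP5PO and NDUFS7 entered it, each through HIF-1α libraries alone, so their count is no support for a direction. COX5A was bound in 6 of 8 HIF-1α and 0 of 8 HIF-2α libraries, and the exact permutation p was 0.00926 (adjusted p = 0.0824). ATP5PO had the same libraries and hence the same p. NDUFS7 was bound in 4 of 8 against 0 of 8 (exact p = 0.0556, adjusted p = 0.118). Labels were exchanged only within a cell line, which limits how small p can be for a given gene. For each of these 3 genes the exact p was the smallest possible with its number of bound libraries in each line. These p-values thus restate the library counts and add no evidence on the isoforms. NDUFS7 could not have been called, however its bound libraries were split between the antibodies.

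No subunit gene was called at an adjusted p of 0.05 and no gene of the 979 was either (0% called, smallest adjusted p = 0.0581 by this exact test). The smallest exact p possible was 0.00154, so after adjustment no gene could be called unless many others shared that value. The absence of calls is therefore no sign of equal binding. At an unadjusted exact p below 0.05 there were 297 genes (30.3%), all with more HIF-1α libraries. Without PC3 HIF-1α replicate 1 the same test called 149 genes, COX5A and ATP5PO among them. HIF-2α lists were drawn with another antibody and held fewer bound genes on average in each cell line, and antibody and isoform cannot be told apart.

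The median distance from a subunit gene to the nearest peak of any HIF-1α library was 26256 bp, against 37865 bp for all genes. For HIF-2α it was 168499 bp against 160954 bp. Within 5000 bp of a TSS 26 subunit genes (29.5%) had a peak of any library, against 33.3% of all genes, and within 10000 bp 32 (36.4%) against 37.6%. Beyond 1000 and up to 10000 bp there were peaks at 13 subunit genes, 11 of them (12.5% of the 88, against 8.45% of all genes) without a peak inside 1000 bp, and the subunit gene was the nearest protein-coding gene in 9 of 36 such pairs.

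**Figure D3:**
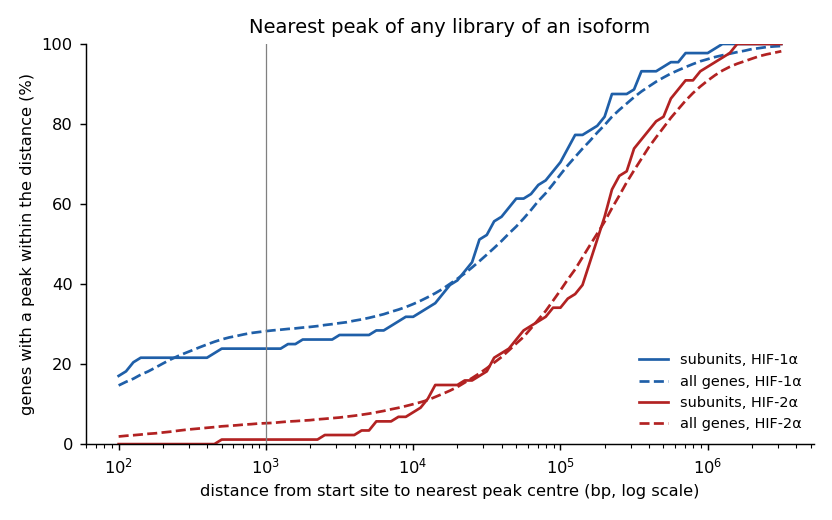
Cumulative share of genes, in percent, with a peak centre of any HIF-1α library (blue) or any HIF-2α library (red) within a given distance of a start site, on a log scale in bp, for the 88 subunit genes (solid) and all 19820 protein-coding genes (dashed). The vertical line marks 1000 bp, where the solid lines stand at 23.9% and 1.14% and the dashed lines at 28.2% and 5.22%.

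NDUFC1, a small accessory subunit of complex I, was the clearest case of a more distant peak to which it was the nearest gene. Its HIF-1α peaks lay 5428 to 5458 bp downstream of the TSS, in both HCT116 replicates (scores 57.05 and 71.7) and PC3 replicate 2 (109.55). It counted as bound in both HCT116 replicates when start sites of all annotated transcripts were used. ATP5MF had a peak 5305 to 5456 bp upstream in 6 HIF-1α libraries and 1 HIF-2α library, with a score of 259.25 in HCT116 replicate 2, but ZNF789 was nearer to it in all 7 libraries. The UQCRFS1 gene for the Rieske iron-sulphur protein of complex III had a HIF-2α peak 2310 bp upstream in HCT116 replicate 3 (score 52.26).

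Promoters of the subunit genes were CpG-rich, with 77 of 88 (87.5%) passing a GC content of 50% and an observed over expected CpG of 0.6 in the 300 bp around the TSS. The share was 67.8% of all genes. Among CpG-rich genes 19 of 77 subunit genes (24.7%) were bound in at least 1 library against 39.4% of all, and 7 (9.09%) in both replicates of a HIF-1α group against 16.6%. The mean difference in share over the 16 libraries widened from −1.30 to −2.62 points. It was uneven between libraries. The largest differences were −9.83 and −9.74 points in HCT116 HIF-1α replicates 2 and 3 and −6.36 in PC3 HIF-1α replicate 2. T47D HIF-1α replicates 1 and 2 had −0.212 and 0.130. Wilson intervals were not computed for CpG-rich genes alone, so those given above for all 88 genes do not cover this comparison. In this 300 bp window ACGTG was present at 20 subunit genes (22.7%) and 22.2% of all genes, and GCGTG at 43 (48.9%) and 44.1%. Among subunit genes with ACGTG 6 of 20 were bound, against 39.4% of all genes with it, and 15 of 68 (22.1%) without it, against 26.2%. The 193 genes of the annotation bound in at least 8 libraries (0.974% of all genes) had ACGTG in 47.7% of cases. No subunit gene was among them, which allows a share of up to 3.41%, so a difference was not detectable.

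Other genes of mitochondrial energy metabolism were set beside the subunits in the same libraries. The 53 assembly factors help to build the complexes without being part of them, and 24 (45.3%) were bound in at least 1 library, with 10 (18.9%) in both replicates of a HIF-1α group. Of the 78 mitochondrial ribosomal protein genes 33 (42.3%) were bound, 10 (12.8%) in both replicates. All 16 glycolytic enzyme genes were bound, in a median of 13.5 libraries, and 15 of 16 in both replicates. These counts are descriptions beside the 29.2% and 12% of all genes, with no test between the lists. HK2, GPI, ALDOA, PGK1, PGAM1, ENO1, PKM and LDHA belong to the study's consensus set of HIF targets. That set was chosen partly for HIF binding in these cell lines, so the binding of these genes is no independent result. The same holds for GAPDH, PFKL, PFKP and TPI1, which the paper names among genes bound by HIF and induced by hypoxia in most of its lines. Over the 8 HIF-1α libraries the shares ranged from 1.89% to 32.1% for assembly factors, 1.28% to 25.6% for ribosomal protein genes, 68.8% to 100% for glycolytic genes, 0% to 12.5% for the subunits and 1.02% to 17.5% for all genes. The order was not the same in every library, and in T47D replicate 1 HIF-1α bound 1.89% of assembly factors and 3.41% of the subunits.

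**Figure D4:**
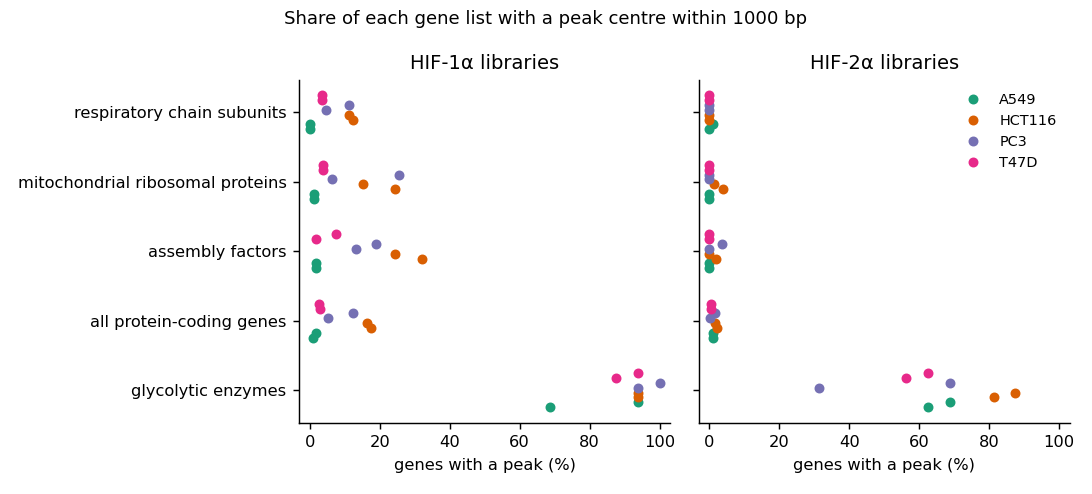
Share of each gene list with a peak centre within 1000 bp of a start site, in percent, in the 8 HIF-1α libraries (left) and the 8 HIF-2α libraries (right). Each point is 1 library, coloured by cell line; subunit shares range from 0 to 12.5% with HIF-1α and glycolytic shares from 68.8 to 100%.

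COX20, which helps to assemble cytochrome c oxidase, was the assembly factor with peaks in the most libraries. It was bound in all 8 HIF-1α libraries, with scores from 236.07 in A549 replicate 2 to 863.6 in T47D replicate 2, and in HCT116 HIF-2α replicate 2 (55.13). These HIF-1α peaks were at percentiles 90.6 to 98.6 of their lists, a range in which 1 of the 42 subunit pairs lay.

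Of 8 mitochondrial genes known for a link to hypoxia, 6 (75%) were bound in at least 1 library, beside 29.2% of all genes. In both replicates of a HIF-1α group 4 (50%) were bound, beside 12% of all genes. PDK1, the kinase that restrains pyruvate dehydrogenase, was bound in all 16 libraries, its lowest score being 69.3 (PC3 HIF-2α replicate 1) and its highest 2930.7 (HCT116 HIF-1α replicate 2). The mitophagy receptor genes BNIP3L and BNIP3 were bound in 13 and 10 libraries. LONP1, a mitochondrial protease, was bound in 10, among them all 8 HIF-1α libraries (scores 54.3 to 1177.63). BNIP3L and LONP1 also belong to the study's consensus set, chosen partly for binding in these cell lines. The paper names PDK1 and BNIP3 among genes bound by HIF and induced by hypoxia in most of its lines. The binding of these genes is therefore no independent result either. NDUFA4L2 and HIGD1A each had 1 peak, both in HCT116 HIF-1α replicate 2 (52.2 and 71.61).

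COX4I2, the alternative form of COX4I1, and ISCU, the iron-sulphur cluster scaffold, had a peak in no library. CYC1 (cytochrome c1 of complex III) and CYCS (cytochrome c), which fall outside the symbol rule, were bound in 3 and 4 libraries. CYC1 had HIF-1α peaks in both HCT116 replicates (92.67 and 81.6) and a HIF-2α peak in HCT116 replicate 3 (50.17). CYCS had HIF-1α peaks in HCT116 replicates 2 and 3 (66.84 and 83.26), PC3 replicate 2 (53.99) and T47D replicate 1 (76.84).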

How the data were processed

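ChIP-seq peak lists of 16 libraries (4 cell lines, 2 antibodies, 2 replicates) were used; HIF-1β libraries, RNA-seq and further cell lines of the study were not used here. The members and gene lists were chosen with earlier results of these data known. Per the labels and the study's methods, the authors trimmed reads with Trim Galore 0.3.3 and aligned them to GRCh37 with BWA 0.7.5a-r405. They dropped reads of mapping quality under 15, blacklisted regions and duplicates (Picard 2.0.1). MACS was run in control mode on each library by itself (version not given in the sources used here). The study's methods also name a further caller, T-PIC, with only peaks found by both callers kept. They add a count filter against random background regions and a need for overlap between replicates. The lists used here still held peaks without a partner in the other replicate. Each deposited peak carries a score from the caller, on a scale that was not stated; the lowest score was 50 to 50.15 in every list, and it was used only for ranks, given as percentiles within a list, and filters. The lists hold no read totals, so depth is unknown and a longer list may be a deeper one. The labels do not say whether replicates were separate cultures, so p-values measure only the spread between these libraries.

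TSSs of protein-coding transcripts were taken from GENCODE 44 mapped to GRCh37. Of 23398 peaks 29 (0.124%) lay off chromosomes 1 to 22, X and Y and were left out. Genes are not independent and can share a peak, so no test was run between gene lists. The isoform test was an exact permutation test (1296 relabellings, smallest p = 0.00154, adjusted over 979 genes). It was checked on simulated data in which unchanged genes had the same rate of binding in every library. That check does not cover lists of unequal length such as these. Genes with values were those bound in both replicates of a group, those called in the isoform test, 8 hypoxia-linked genes, CYC1, CYCS and assembly factors bound in at least 8 libraries; sequences are given for the 6 bound in the most libraries, ties (4 genes at 2 libraries) going to the higher mean percentile of score. The other bound subunits, and NDUFC1, ATP5MF and UQCRFS1 with more distant peaks, were named after their values were seen. Alternatives changed the distance, start sites, score filter, libraries and relabelling scheme. Scripts ran under Python 3.11.15 with pysam 0.24.0, matplotlib 3.10.9, scipy 1.17.1 and numpy 2.4.6.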

Additional observations from a re-analysis of the deposited data

How the results depend on the processing

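Distances of 500 and 5000 bp, another peak overlap rule, other start site sets and assignment to the nearest gene left the counts of bound subunit genes within 1.5 times, but the mean difference from all genes (−1.30 points) was −0.851 at 500 bp and −0.796 with 1 representative start site per gene. Stronger peaks alone lowered them. With scores at or above 74.55, the median of all peaks, 12 subunit genes (13.6%, beside 16.9% of all genes) were bound in any library. In both replicates of a HIF-1α group 4 were bound (4.55%, beside 6.71%). The mean difference from all genes was −0.743 points, and the isoform test called 49 genes. With the 275 best peaks of each library, 1 subunit gene (1.14%, beside 3.05% of all genes) was bound in any library. In both replicates of a HIF-1α group there were 0, beside 1.29% of all genes. The mean difference was −0.590 points and the isoform test called 55 genes, no subunit among the calls. Fewer peaks enter by construction. Counting either replicate gave 21 genes for HIF-1α and 1 for HIF-2α (23.9% and 1.14%, beside 28.2% and 5.22% of all genes). With CpG-rich genes alone the mean difference was −2.62 points; the cause was not tested.

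Restricting the isoform test to genes bound in at least 8 libraries called 65 genes. Leaving out 1 library at a time, the bound subunit genes numbered 16 to 21 in any library, 4 to 7 in both replicates of a HIF-1α group (4 without either HCT116 HIF-1α replicate) and 0 to 0 for HIF-2α, and the mean difference was −1.44 to −1.05 points. Isoform calls ranged from 0 to 149 genes and from 0 to 2 subunit genes. They were 149 without PC3 HIF-1α replicate 1 (COX5A and ATP5PO included), 26 without its replicate 2, 39 without A549 HIF-1α replicate 2, 61 and 62 without HCT116 HIF-1α replicates 2 and 3, 29 without T47D HIF-1α replicate 1 and 31 without PC3 HIF-2α replicate 2; the cause was not tested.

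Same-numbered libraries of the 2 antibodies were compared over the genes bound in any library of a line. The correlation of their replicate differences was −0.141 in PC3 and −0.000189 to 0.00743 in the other lines. This measure leaves out a shift of the whole list. PC3 replicate 2 had the longer list for both antibodies (3413 against 1517 and 1290 against 275 peaks), as had HCT116 replicate 2. In A549 and T47D cells the longer lists bore different numbers. Whether the numbers pair the antibodies cannot be decided from these values. With a replicate block of 256 relabellings, 0 genes and 0 subunit genes were called, 151 at an unadjusted p below 0.05. The smallest p of this exact test was 0.00781. After adjustment over 979 genes a call needed more genes than those 151 at or near that value. The 0 calls thus reflect the few relabellings and decide nothing about the isoforms. Crossing the PC3 numbers, an alternative added after seeing the data, also gave 0 calls, with the same smallest p.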

Other observations

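The subunits encoded by mitochondrial DNA were outside the symbol rule. Of the 23398 peaks 1 was on the mitochondrial chromosome, in T47D HIF-2α replicate 1, with a score of 1306.79. No other library held a peak there, and T47D HIF-2α replicate 2 held none.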
